A study of Homo sapiens with 6 samples.

Results

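The genes described are 43 of 19775 measured in HT29, an established human cell line from a colorectal adenocarcinoma. They belong to adenosine and cyclic nucleotide signalling, in which methylxanthines have some of their targets. They are 3 adenosine receptors, 2 enzymes of adenosine turnover, 10 adenylate cyclases, 20 phosphodiesterase genes, 6 subunits of protein kinase A and 2 transcription factors of the CREB family. They were chosen by a rule on symbols that uses no values, although it was set with earlier results of these data known. They come from probe sets that carry exactly 1 gene symbol, and they are read by 132 of the 54613 probe sets tested. ADORA2A and PDE4C met the symbol rule only on probe sets that carry a further symbol and are therefore not among them. The 3 cocoa cultures received 500 µg of a polyphenolic cocoa extract for 24 h, and 3 control cultures were given saline according to the protocol and are titled untreated in the sample names. All 6 cultures were of the same line, plated at 300000 cells and grown in F12 medium with 7% serum, and each was read on its own oligonucleotide array. The labels give neither the volume in which the extract was dosed nor its content of methylxanthines, and no separate days or passages for the 3 cultures of a group, so the p-values speak only of the spread among these 6 cultures.

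Adenosine outside the cell is made from AMP by the ecto-enzyme CD73 and is removed by adenosine deaminase. It acts on G protein-coupled receptors that raise or lower the activity of adenylate cyclases, which make cyclic AMP. Cyclic AMP frees the catalytic subunits of protein kinase A from their regulatory subunits, the kinase phosphorylates CREB, and phosphodiesterases end the signal by hydrolysing cyclic AMP or cyclic GMP. Theobromine and caffeine, the methylxanthines of cocoa, block adenosine receptors and, at higher concentrations, phosphodiesterases. In the colon epithelium the A2B receptor is the best known adenosine receptor, where it couples to chloride secretion through cyclic AMP.

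The deposited log2 expression values of every probe set have a median of 0 across the 6 arrays. They give differences between arrays and no levels, so whether a gene is expressed at all in these cells, and whether the cells carry the markers of their labelled type, could not be read from them. Of 17 measured markers of colon epithelium, leukocytes, fibroblasts and endothelium, limma called 0 between cocoa and control. Among these markers 2 were at an unadjusted p below 0.05. Over all genes, 13.5% were called and 5368 of 19775 were at an unadjusted p below 0.05. The number of arrays limits the precision. Cocoa arrays 1, 2 and 3 had values of −0.51, 3.31 and 1.40 for the control probe sets of 18S ribosomal RNA, against −1.12, 0.51 and −0.53 in control arrays 1, 2 and 3. The 5′ minus 3′ signal of actin and GAPDH, a measure of RNA integrity, was 0.032, −0.26 and −0.052 in the cocoa arrays, against 0.028, 0.033 and 0.009 in the controls. Cocoa arrays 2 and 3 thus lay above all controls in the 18S signal and below all controls in the 5′ minus 3′ signal, and for each called gene named below that lost its call with either signal as a covariate, the difference and adjusted p of that fit are given.

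Of the 43 genes, 4 rose and 3 fell with cocoa in limma (adjusted p below 0.05 by Benjamini-Hochberg), and 36 did not pass. The genes that rose were ADA, PDE6D, PDE9A and ADCY6, and those that fell were ADORA2B, PRKAR2A and PDE10A. The 7 calls are 16.3% of the 43 genes, and 13.5% of all genes were called; 7.36% of all genes rose and 6.12% fell. The share is near that background. The median log2 difference of the 43 genes was −0.0072, and that of all genes was −0.0125. The groups were fully separated in 15 of the 43 genes, 6 with cocoa above and 9 with cocoa below control, and in 32.5% of all genes. Differences in these genes were small: the median absolute log2 difference was 0.0616, against 0.0994 over all genes. The range ran from −0.46 for ADORA2B to 0.53 for ADA. Gene values are means over probe sets, 132 for these 43 genes and 41091 for all 19775. The bearing of this averaging on the comparison was not tested.

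**Figure D1:**
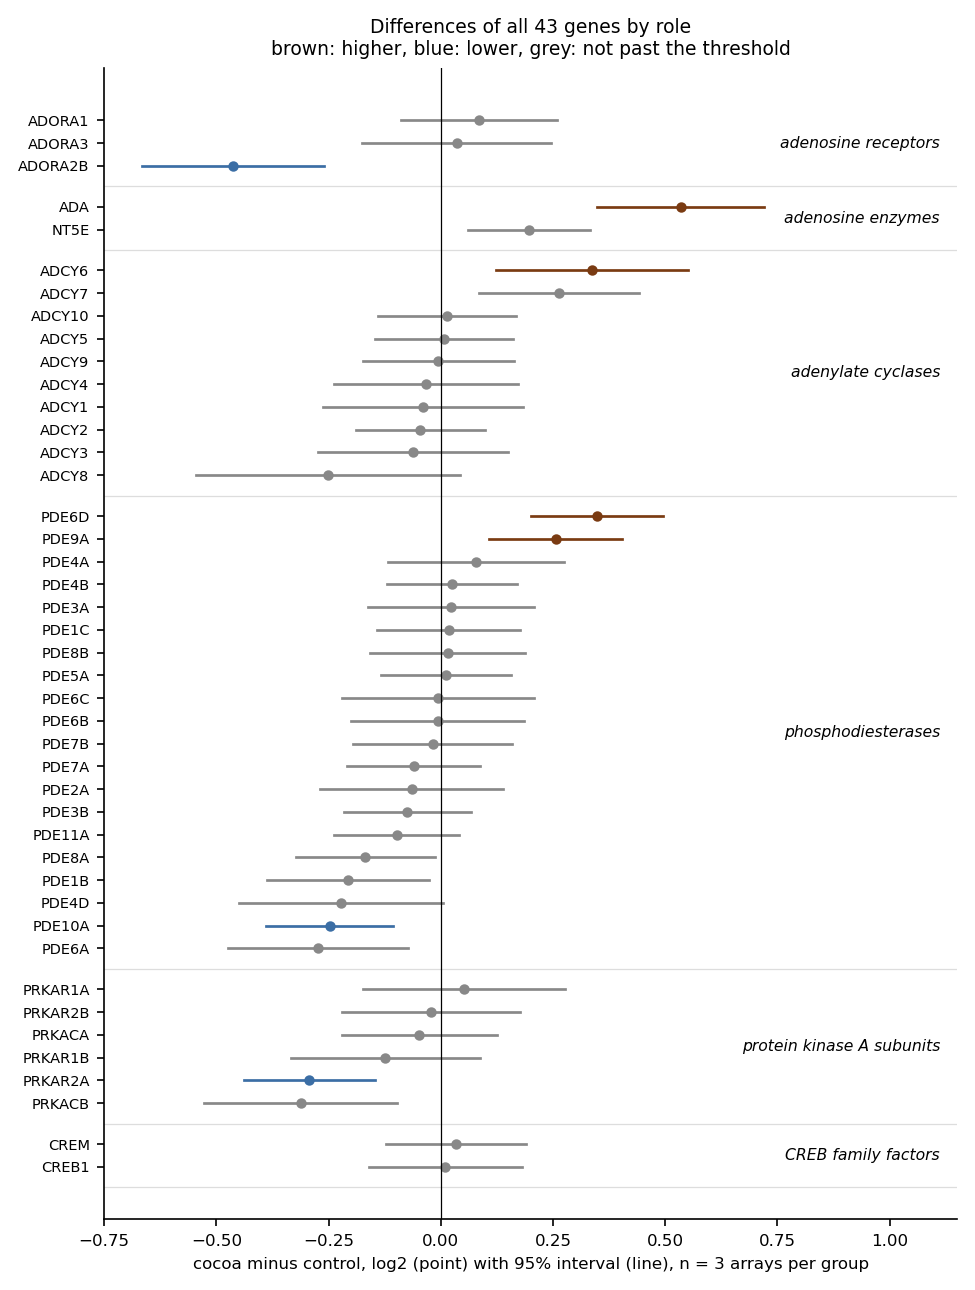
Log2 difference, cocoa minus control (x axis), of all 43 genes (y axis), grouped by role, with points for the differences and lines for their 95% intervals (n = 3 arrays per group). ADA, PDE6D, ADCY6 and PDE9A lie to the right of 0 and ADORA2B, PRKAR2A and PDE10A to the left as called genes, and the intervals of most other genes cross 0.

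Among the receptors, ADORA2B, the low-affinity A2B receptor that couples to stimulatory G proteins, fell. Its values were −0.11, −0.34 and −0.20 in cocoa arrays 1, 2 and 3, against 0.38, 0.11 and 0.25 in control arrays 1, 2 and 3. Every cocoa array lay below every control array. The log2 difference was −0.46 (SE 0.0898, n = 3 arrays per group, limma adjusted p = 0.00975), which is 1.38-fold lower with cocoa. The gene rests on 1 probe set, and in RNA of whole cultures fewer cells with the transcript and less of it per cell cannot be told apart. The call held in each fit that left out 1 array, with adjusted p of 0.0112 to 0.0401, and missed the threshold with the 18S signal (difference −0.33, adjusted p = 0.064) or the 5′ minus 3′ signal (−0.38, adjusted p = 0.0597) as a covariate.

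The other 2 receptors did not pass. ADORA1, which couples to inhibitory G proteins, had values of 0.082, 0.12 and −0.022 in the cocoa arrays, against 0.020, 0.053 and −0.15 in the controls, and the groups overlapped. Its log2 difference was 0.086, with a 95% interval of −0.089 to 0.26. ADORA3, also an inhibitory receptor, had values of −0.16, 0.034 and 0.22 in the cocoa arrays, which enclose the control values of 0.017, −0.021 and −0.008. Its difference was 0.035 (95% interval −0.18 to 0.25).

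ADA, adenosine deaminase, which turns adenosine into inosine, had the largest difference of the 43 genes. It read 0.32, 0.39 and 0.18 in cocoa arrays 1, 2 and 3, against −0.13, −0.23 and −0.35 in control arrays 1, 2 and 3. All cocoa arrays were above all controls. ADA rose by 0.53 on the log2 scale (SE 0.0825, adjusted p = 0.00343), which is 1.45-fold, and 2.89% of all genes differed as much. Its call was kept in all 15 alternative fits, with adjusted p from 0.00132 to 0.0289. Of its 2 probe sets, one had a difference of 0.68 (adjusted p over probe sets 0.00393) and the other, of the suffix _s_at, one of 0.38 (adjusted p = 0.123).

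NT5E encodes CD73, which makes adenosine from AMP at the cell surface. As the mean of 4 probe sets it read 0.12, 0.073 and 0.055 with cocoa, against −0.10, −0.14 and −0.10 in controls. The groups did not overlap, but the difference of 0.20 (SE 0.0607) did not pass (adjusted p = 0.0632). Its probe sets disagreed in sign. One rose by 0.53 (adjusted p over probe sets 0.03) and another by 0.47 (adjusted p = 0.0112), while the remaining ones had differences of 0.27 (adjusted p = 0.091) and −0.49 (adjusted p = 0.0525). In each of the 4 the groups were fully separated, so the gene mean averages opposed readings. With the median of the probe sets in place of the mean, NT5E had a difference of 0.33 (adjusted p = 0.00831).

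**Figure D2:**
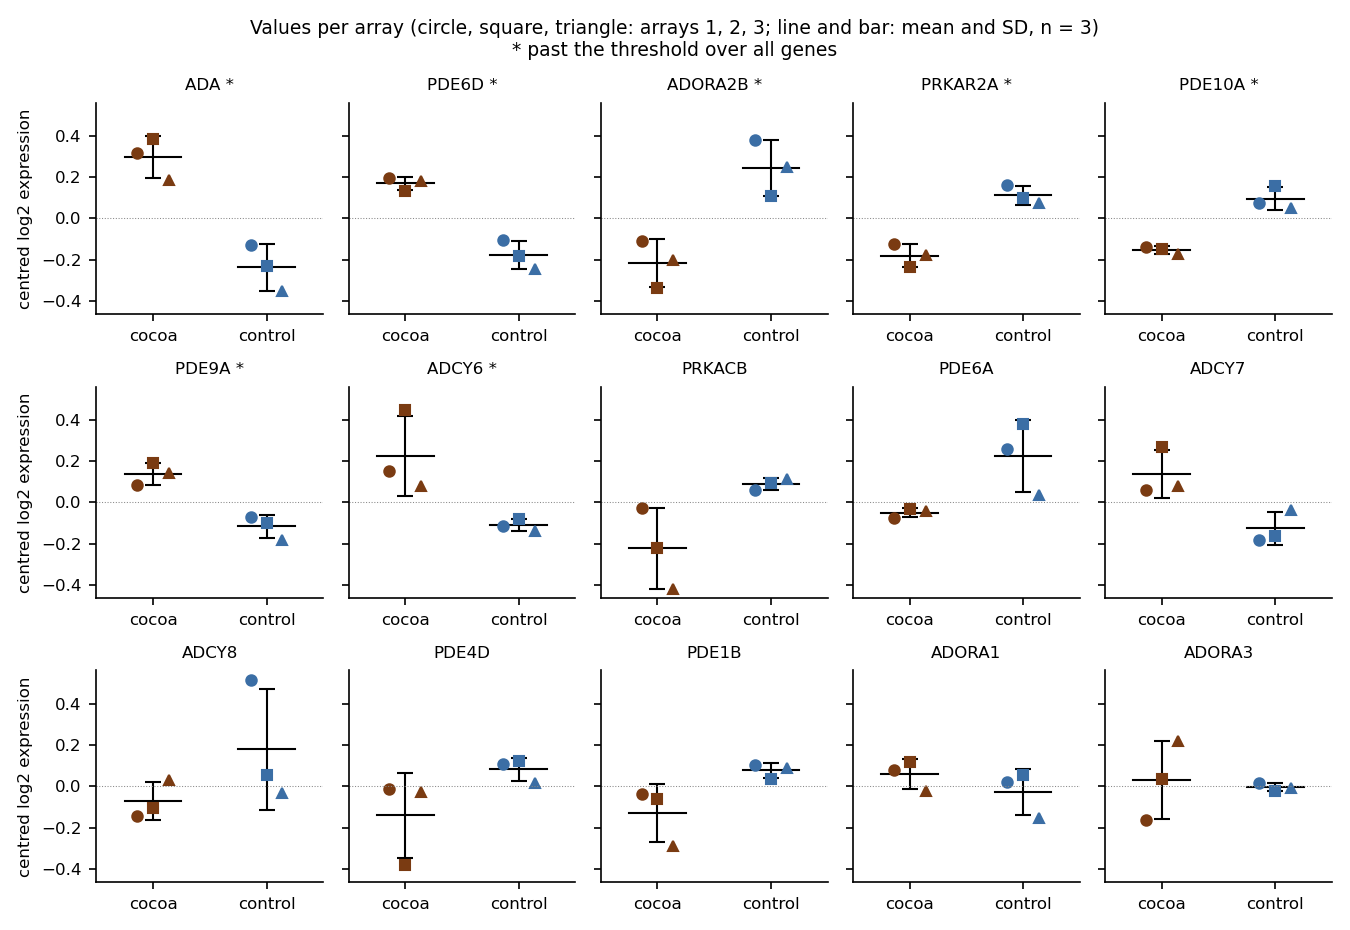
Centred log2 expression (y axis) in the 3 cocoa and 3 control arrays for the 7 called genes (marked with an asterisk), the 6 further genes with the largest differences, and ADORA1 and ADORA3. Symbols stand for array numbers, horizontal lines for group means and bars for SD (n = 3); in the 7 called genes the groups do not overlap, while in ADORA1, ADORA3 and ADCY8 they do.

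Of the 10 adenylate cyclases, 1 rose, none fell and 9 did not pass. This is 10% called, against 13.5% of all genes, with a median log2 difference of −0.0193. ADCY6, a calcium-inhibited isoform, read 0.15, 0.45 and 0.080 with cocoa, against −0.12, −0.080 and −0.14 in controls. Cocoa array 2, which had the highest 18S signal, was also the highest in ADCY6. Of the cocoa arrays it also lay farthest from the controls in ADA (0.39), PDE9A (0.19), ADORA2B (−0.34) and PRKAR2A (−0.24). In PDE6D and PDE10A it did not. The difference of ADCY6 was 0.34 (SE 0.095, adjusted p = 0.0464). It rests on 1 probe set of the suffix _s_at, given where probes can match more than 1 transcript. Without cocoa array 2 it was 0.23 (adjusted p = 0.0827), and of the 6 fits without 1 array only that without cocoa array 3 kept the call (adjusted p 0.0358 to 0.121). With the 18S signal as a covariate the difference was 0.21 (adjusted p = 0.262) and with the 5′ minus 3′ signal 0.20 (adjusted p = 0.193). In RefSeq the span of ADCY6 overlaps that of the non-coding transcript ADCY6-DT by 828 bases, and ADCY6-DT rose by 0.57 (SE 0.0794, adjusted p = 0.00206). The span of ADCY6 also overlaps the protein-coding gene SPMIP11, by 5266 bases. SPMIP11 had a difference of 0.24 (SE 0.081) and did not pass (adjusted p = 0.0893).

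ADCY7, an isoform well known from blood cells, did not pass as a gene: its mean difference was 0.26 (SE 0.0795, adjusted p = 0.0585), with values of 0.059, 0.27 and 0.081 in cocoa arrays against −0.18, −0.16 and −0.035 in controls. Its 2 probe sets differed. One, of the suffix _s_at, rose by 0.56 (adjusted p over probe sets 0.00981), and the other had a difference of −0.031 (adjusted p = 0.908). Without probe sets of the suffixes _s_at and _x_at, ADCY7 thus had a difference of −0.031 (adjusted p over genes 0.9). ADCY9, a forskolin-insensitive isoform, was also split, but its probe set without these suffixes was the one that rose, by 0.42 (adjusted p over probe sets 0.036). The others, of the suffixes _x_at and _s_at, had differences of −0.28 and −0.15, and the gene mean of ADCY9 was −0.0055 (adjusted p = 0.977). ADCY8, a calcium-stimulated isoform, had the most spread controls of the 43 genes. It read −0.14, −0.10 and 0.031 with cocoa, against 0.52, 0.055 and −0.031 in controls, and did not pass (adjusted p = 0.262). Control array 1 alone stood high in ADCY8, the groups overlapped, and without that array the difference was −0.084. The other cyclases, ADCY1, ADCY2, ADCY3, ADCY4, ADCY5 and ADCY10, had differences between −0.062 and 0.014.

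Of 20 phosphodiesterase genes, 2 rose, 1 fell and 17 did not pass. This is 15% called, against 13.5% of all genes, and the median log2 difference was −0.0125. The clearest change was in PDE6D, which is named for the photoreceptor enzyme but encodes a chaperone that carries prenylated proteins between membranes and has no hydrolase activity of its own. PDE6D read 0.20, 0.13 and 0.18 in cocoa arrays, against −0.11, −0.18 and −0.24 in controls. The groups were well apart, and the spread was small in cocoa (0.17 ± 0.0331 in cocoa and −0.18 ± 0.070 in control, SD, n = 3 each). It rose by 0.35 (SE 0.0656, adjusted p = 0.00853), which is 1.27-fold, and the call was kept in all 15 alternative fits (adjusted p 0.00541 to 0.0452). Of its 3 probe sets, one rose by 0.73 (adjusted p over probe sets 0.00147) and one, of the suffix _x_at, by 0.41 (adjusted p = 0.0267). The third had a difference of −0.097 (adjusted p = 0.572).

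PDE9A, a phosphodiesterase specific for cyclic GMP, read 0.085, 0.19 and 0.14 with cocoa, against −0.072, −0.098 and −0.18 in controls. The groups did not overlap. The difference of 0.26 (SE 0.0657, adjusted p = 0.0318) averages a probe set of the suffix _s_at that rose by 0.43 (adjusted p over probe sets 0.0449) and one with a difference of 0.087 (adjusted p = 0.606). PDE10A, a dual-substrate enzyme best known from the striatum, read −0.14, −0.15 and −0.17 with cocoa, against 0.076, 0.16 and 0.051 in controls. It fell by 0.25 (SE 0.0628, adjusted p = 0.0304), although none of its 3 probe sets passed alone. Of the 6 fits without 1 array, only that without cocoa array 1 kept either call, with an adjusted p of 0.0325 to 0.11 for PDE9A and 0.045 to 0.14 for PDE10A. PDE9A lost its call with the 18S covariate (difference 0.22, adjusted p = 0.167) and with the 5′ minus 3′ covariate (0.22, adjusted p = 0.131). PDE10A lost its call with a difference about as large, −0.26 with the 18S covariate (adjusted p = 0.103) and −0.24 with the 5′ minus 3′ covariate (adjusted p = 0.0979). Without probe sets of the suffixes _s_at and _x_at, PDE9A had a difference of 0.087 (adjusted p = 0.554) and PDE10A one of −0.17 (adjusted p = 0.33).

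The phosphodiesterases that methylxanthines and clinical inhibitors are best known to block did not pass as genes. PDE4A, PDE4B and PDE4D hydrolyse cyclic AMP, and PDE4D had the largest difference of the 3, −0.22 (SE 0.101, adjusted p = 0.193). It read −0.014, −0.38 and −0.027 with cocoa, against 0.11, 0.12 and 0.018 in controls, and without cocoa array 2 the difference was −0.10. One probe set of PDE4A rose by 0.58 (adjusted p over probe sets 0.0122). The other 4 probe sets of PDE4A lay between −0.16 and 0.090, and the gene mean was 0.079 (adjusted p = 0.642). PDE4B had a difference of 0.025, with a 95% interval of −0.12 to 0.17. PDE3A and PDE3B, cyclic GMP-inhibited enzymes, had differences of 0.023 (−0.16 to 0.21) and −0.075 (−0.22 to 0.067). PDE5A, the target of sildenafil, had 8 probe sets, a difference of 0.012 and an interval of −0.13 to 0.16.

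In PDE6A, PDE1B, PDE8A and PDE11A, as in PDE4D, the cocoa arrays were all below the controls without passing. Full separation occurred in 8 of the 20 phosphodiesterase genes, 6 with cocoa below and 2 with cocoa above. Over all genes it occurred in 32.5%, with cocoa below in 3370 of 19775. PDE6A, a catalytic subunit of the rod photoreceptor enzyme, read −0.075, −0.034 and −0.043 with cocoa, against 0.26, 0.38 and 0.034 in controls, a difference of −0.27 (adjusted p = 0.0763). Leaving out 1 array moved it between −0.37 without control array 3, the only such fit that passed (adjusted p = 0.0233), and −0.20 without control array 2 (adjusted p = 0.263). PDE1B, a calmodulin-dependent enzyme, read −0.036, −0.062 and −0.29 with cocoa, against 0.10, 0.036 and 0.091 in controls, a difference of −0.21 (adjusted p = 0.13) that was −0.13 without cocoa array 3 (adjusted p = 0.333). PDE8A, a high-affinity cyclic AMP enzyme, had a difference of −0.17 (adjusted p = 0.151) and PDE11A, a dual-substrate enzyme, one of −0.098 (adjusted p = 0.361). PDE1C, PDE2A, PDE6B, PDE6C, PDE7A, PDE7B and PDE8B had overlapping groups and differences between −0.065 and 0.018.

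Of the 6 protein kinase A subunits, 1 fell, none rose and 5 did not pass (16.7% called, against 13.5% of all genes). In 5 of the 6 the difference was below 0, and over all genes 9184 of 19775 differences were above 0. PRKAR2A, the type II alpha regulatory subunit, which binds anchoring proteins, read −0.13, −0.24 and −0.18 with cocoa, against 0.16, 0.10 and 0.073 in controls. Every cocoa array was below every control. PRKAR2A fell by 0.29 (SE 0.0649, adjusted p = 0.0176), which is 1.22-fold lower. All 5 of its probe sets were below 0, from −0.40 to −0.19, and 1 of them passed (−0.35, adjusted p over probe sets 0.0314). Leaving out 1 array at a time, the call held in 3 of 6 fits and was lost without cocoa array 2 (adjusted p = 0.055), control array 1 (0.0701) or control array 2 (0.0685). It was also lost with the 18S signal (difference −0.24, adjusted p = 0.115) or the 5′ minus 3′ signal (−0.25, adjusted p = 0.0854) as a covariate.

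PRKACB, the beta catalytic subunit, had the larger difference, −0.31, but its cocoa arrays were spread out, at −0.026, −0.22 and −0.42 against 0.059, 0.094 and 0.12 in controls, and it did not pass (SE 0.0956, adjusted p = 0.0616). Leaving out 1 array moved the difference between −0.41 without cocoa array 1, the only such fit that passed (adjusted p = 0.0136), and −0.21 without cocoa array 3 (adjusted p = 0.157). All 3 of its probe sets were below 0. PRKACA, the alpha catalytic subunit, held 2 opposed probe sets, with a gene mean of −0.048. One, of the suffix _s_at, fell by 0.36 (adjusted p over probe sets 0.0264), and the other had a difference of 0.27 (adjusted p = 0.196). PRKAR1A, the type I alpha regulatory subunit, had a difference of 0.051 and the widest spread among its cocoa arrays after PDE4D (0.21, −0.19 and 0.045 in cocoa, against −0.008, 0.022 and −0.11 in control). Its 4 probe sets ran from −0.36 to 0.34 and none passed, and without those of the suffix _s_at the gene had a difference of 0.25 and passed (adjusted p = 0.0481). PRKAR1B and PRKAR2B had differences of −0.12 and −0.021.

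The factors at the end of the pathway did not pass. CREB1, the kinase's main nuclear substrate, had a difference of 0.010 over 7 probe sets, with a 95% interval of −0.16 to 0.18. CREM, whose internal promoter makes the early repressor ICER, had a difference of 0.034 over 6 probe sets, with an interval of −0.12 to 0.19. In both genes the groups overlapped and no probe set passed.

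**Figure D3:**
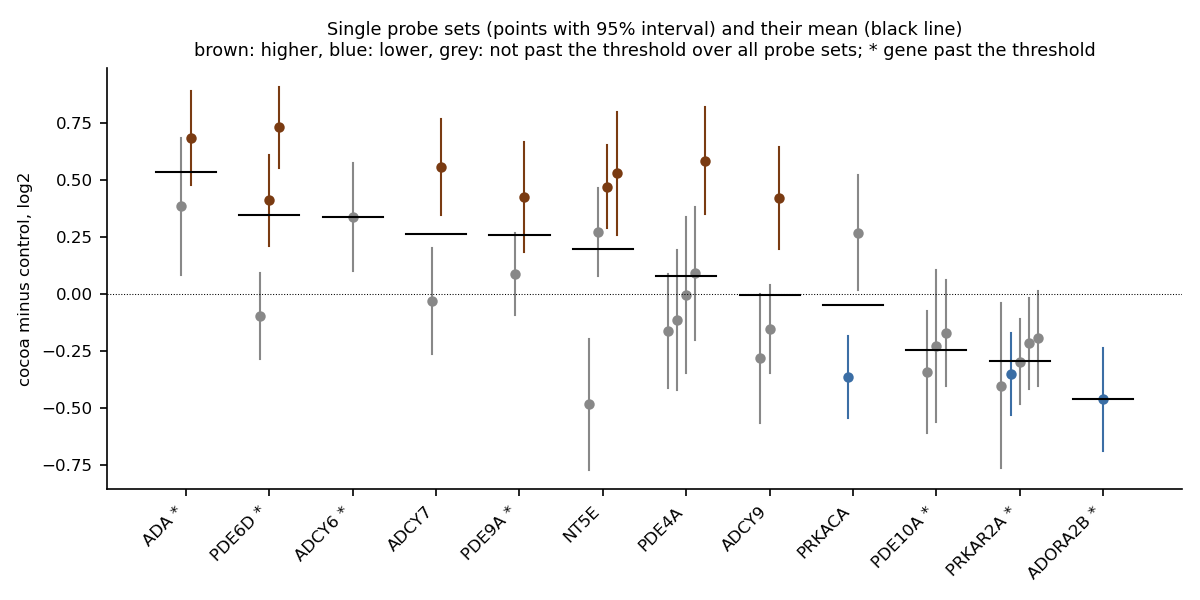
Log2 difference, cocoa minus control (y axis), of each probe set (points with 95% intervals, n = 3 arrays per group) for the 12 genes with a called gene mean or a called probe set, with the gene mean as a black line. NT5E, PDE6D, ADCY9, PDE4A and PRKACA hold probe sets on both sides of 0, while those of PRKAR2A, PDE10A and ADA lie on 1 side.

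At the level of probe sets, 12 of the 132 were called (9.09%), against 7.98% of all probe sets. Of these, 9 rose and 3 fell, and over all probe sets 4.68% rose and 3.3% fell. These 12 probe sets belong to 10 genes, of which 5, namely NT5E, ADCY7, ADCY9, PDE4A and PRKACA, were not called by their mean, while 2 called genes, ADCY6 and PDE10A, had no called probe set. Of the 34 genes with several probe sets, 9 had a single sign in all of them and 25 had both. No gene had probe sets called in both directions.

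Promoter sequence was searched for the site of CREB. The RefSeq promoter table (GRCh38.p14, 250 bases before to 50 after each start) held 37 of them, ADCY6, ADCY8, ADCY9, PDE3B, PDE7A and PDE9A not among them. The cAMP response element TGACGTCA, a palindrome that CREB binds, was searched on both strands and was found in the promoters of 4 of the 37 genes (10.8%), against 2.25% of 27305 genes in the table. Counted over promoters, it was in 6 of 95 (6.32%, overlapping promoters of CREM and PRKAR1A holding the same site), against 1.85% of all 35116. These were CREM, PRKAR1A, PDE4A and PDE7B, and none of them was called by its mean. Of the 5 called genes with a promoter in the table, 0 held the element. Its windows are shown because CREB is the factor at the end of this pathway. The element is in capitals, 5′ to 3′ on the gene's strand:
CREM, + strand, chr10:35195832-35195879: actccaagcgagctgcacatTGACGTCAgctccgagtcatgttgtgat
PRKAR1A, + strand, chr17:68512361-68512408: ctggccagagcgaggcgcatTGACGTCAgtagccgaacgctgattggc
PDE4A, + strand, chr19:10416750-10416797: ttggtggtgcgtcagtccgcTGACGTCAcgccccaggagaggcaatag
PDE7B, + strand, chr6:135851526-135851573: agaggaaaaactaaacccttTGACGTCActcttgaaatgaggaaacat
The differences of these 4 genes were 0.034, 0.051, 0.079 and −0.018. A match of letters is a description and shows no binding.

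The shorter core of the element, TGACG on either strand, which is contained in TGACGTCA, was present in 18 of the 37 genes (48.6%, against 28.4% of all genes in the table), but in 26.3% of their promoters against 24.6% of all promoters. The table holds 95 promoters for the 37 genes and 35116 for 27305 genes, so a member offers more windows for a match than a gene of the whole table. Among called genes it was found in PDE6D, ADORA2B and PRKAR2A, and not in ADA or PDE10A. The windows of the 3 called genes are shown to set beside their values, with the core in capitals, 5′ to 3′ on the gene's strand:
PDE6D, − strand, chr2:231781383-231781427: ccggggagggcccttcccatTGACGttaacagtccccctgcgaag
ADORA2B, + strand, chr17:15944884-15944928: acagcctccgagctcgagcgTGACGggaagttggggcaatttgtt
PRKAR2A, − strand, chr3:48847854-48847898: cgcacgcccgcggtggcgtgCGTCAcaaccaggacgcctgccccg
PDE6D rose while ADORA2B and PRKAR2A fell, so called genes with the core were found in both directions.

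The remaining genes of the pathway were read from lists of 110 names, of which 103 were measured. Of the 103, 7 rose and 7 fell, which is 13.6% against 13.5% of all genes, and the median difference was −0.0174. The inhibitors and anchors of protein kinase A held the largest change. Of 18 measured, 1 rose, 4 fell and 13 did not pass (27.8% called, against 13.5% of all genes), with a median of −0.0084. PKIG, the gamma isoform of the heat-stable inhibitor that binds the free catalytic subunit, read 0.71, 0.80 and 0.63 with cocoa, against −0.63, −0.98 and −1.01 in controls. The groups lay far apart. PKIG rose 3.01-fold (log2 difference 1.59, SE 0.103, adjusted p = 4e-05), on 1 probe set, and kept its call in all 15 alternative fits. PKIB, the beta isoform of the same inhibitor, went the other way. It read −0.29, −0.24 and −0.21 with cocoa, against 0.26, 0.14 and 0.28 in controls, and fell by 0.48 (SE 0.0674, adjusted p = 0.00214), also in all 15 alternative fits. PKIA, the alpha isoform, was not called (0.094, adjusted p = 0.538). Of the anchoring proteins, AKAP12 fell by 0.47 (adjusted p = 0.0414), EZR, the cytoskeletal linker ezrin, by 0.39 (adjusted p = 0.0223) and AKAP8, a nuclear anchor, by 0.37 (adjusted p = 0.00558). The call of AKAP8 held in every fit without 1 array and was lost without probe sets of the suffixes _s_at and _x_at (−0.22, adjusted p = 0.09). AKAP12 held only without cocoa array 1 or control array 1 (adjusted p 0.0288 to 0.128), and EZR only without cocoa array 1 (0.00915 to 0.0885). With the 18S covariate AKAP12 had a difference of −0.47 (adjusted p = 0.155) and EZR one of −0.26 (adjusted p = 0.145). With the 5′ minus 3′ covariate these were −0.50 (adjusted p = 0.117) for AKAP12 and −0.25 (adjusted p = 0.086) for EZR. Without probe sets of the suffixes _s_at and _x_at AKAP12 had a difference of −0.25 (adjusted p = 0.0553).

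Of 21 measured genes of adenosine and ATP handling, 2 rose, 1 fell and 18 did not pass. This is 14.3% called, against 13.5% of all genes, with a median of −0.027. AMPD3, an AMP deaminase, which draws AMP away from adenosine, rose 1.54-fold (log2 difference 0.62, SE 0.082, adjusted p = 0.00164), on 1 probe set of the suffix _s_at. DPP4, the cell surface peptidase CD26 to which adenosine deaminase binds in humans, rose by 0.39 (SE 0.0646, adjusted p = 0.00462). PNP, which splits the inosine made by adenosine deaminase, fell by 0.37 (SE 0.0662, adjusted p = 0.00682), on 1 probe set of the suffix _s_at. The call of PNP was lost once the 18S signal was a covariate (difference −0.32, adjusted p = 0.0548). ADA, AMPD3 and DPP4 thus were higher, and PNP lower, in every cocoa array than in every control array. Such full separation occurred in 8 of the 21 list genes, 4 with cocoa above and 4 with cocoa below, and in 32.5% of all genes.

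Of 16 other cyclic nucleotide receptors and cyclic GMP enzymes, 1 rose and 0 fell in limma (6.25% called, against 13.5% of all genes). In this list 3 were at an unadjusted p below 0.05 in all, against 5368 of 19775 over all genes, and the median was −0.0153. CNGA1, a channel subunit opened by cyclic GMP in rod photoreceptors, rose 1.67-fold (log2 difference 0.74, SE 0.0684, adjusted p = 0.000259), on 1 probe set. It read 0.50, 0.45 and 0.32 with cocoa, against −0.32, −0.32 and −0.33 in controls. Of 14 CREB family members and coactivators, 2 rose and 12 did not pass (14.3% called), with a median of −0.0053. CREBRF, which promotes breakdown of the factor CREB3, rose 1.73-fold (0.79, SE 0.0764, adjusted p = 0.000336), and CREB3L1, a membrane-bound factor of the secretory pathway, rose by 0.31 (SE 0.0796, adjusted p = 0.0304). Of the probe sets of CREB3L1, 1 rose by 0.58 (adjusted p over probe sets 0.0171) and the other had a difference of 0.048 (adjusted p = 0.817). Of the 6 fits without 1 array only that without cocoa array 1 kept CREB3L1 (0.0286 to 0.101). CREB3L1 lost its call with the 18S covariate (0.24, adjusted p = 0.183) and with the 5′ minus 3′ covariate (0.26, adjusted p = 0.141). Neither belongs to the factors that protein kinase A is best known to phosphorylate.

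Of 17 measured CREB target genes, 1 rose, 2 fell and 14 did not pass (17.6% called, against 13.5% of all genes), with a median of −0.0139. NR4A2, a nuclear receptor induced early by cyclic AMP, rose by 0.41 (SE 0.083, adjusted p = 0.0114), on probe sets of the suffixes _s_at and _x_at only. Its difference was as large with the 18S signal (0.41, adjusted p = 0.0663) or the 5′ minus 3′ signal (0.42, adjusted p = 0.0511) as a covariate, although the call was lost. RGS2, a regulator of G protein signalling, fell by 0.59 (SE 0.0787, adjusted p = 0.00165), on 1 probe set. DUSP1, a phosphatase of MAP kinases, fell by 0.37 (SE 0.0668, adjusted p = 0.00692). The 3 probe sets of DUSP1 all carry the suffix _s_at or _x_at, and 1 of them passed (−0.66, adjusted p over probe sets 0.00391). The others had differences of −0.30 (adjusted p = 0.1) and −0.16 (adjusted p = 0.509). The genes of this list thus moved in both directions. Of 11 G protein subunits limma called 0, with 2 at an unadjusted p below 0.05 and a median of −0.0767. It also called 0 of 3 further genes of the phosphodiesterase family and 0 of 3 ryanodine receptors, the calcium channels that caffeine opens. In either list 0 were at an unadjusted p below 0.05, with medians of −0.0388 and 0.0997. The share called over all genes was 13.5%, and 5368 of 19775 were at an unadjusted p below 0.05.

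**Figure D4:**
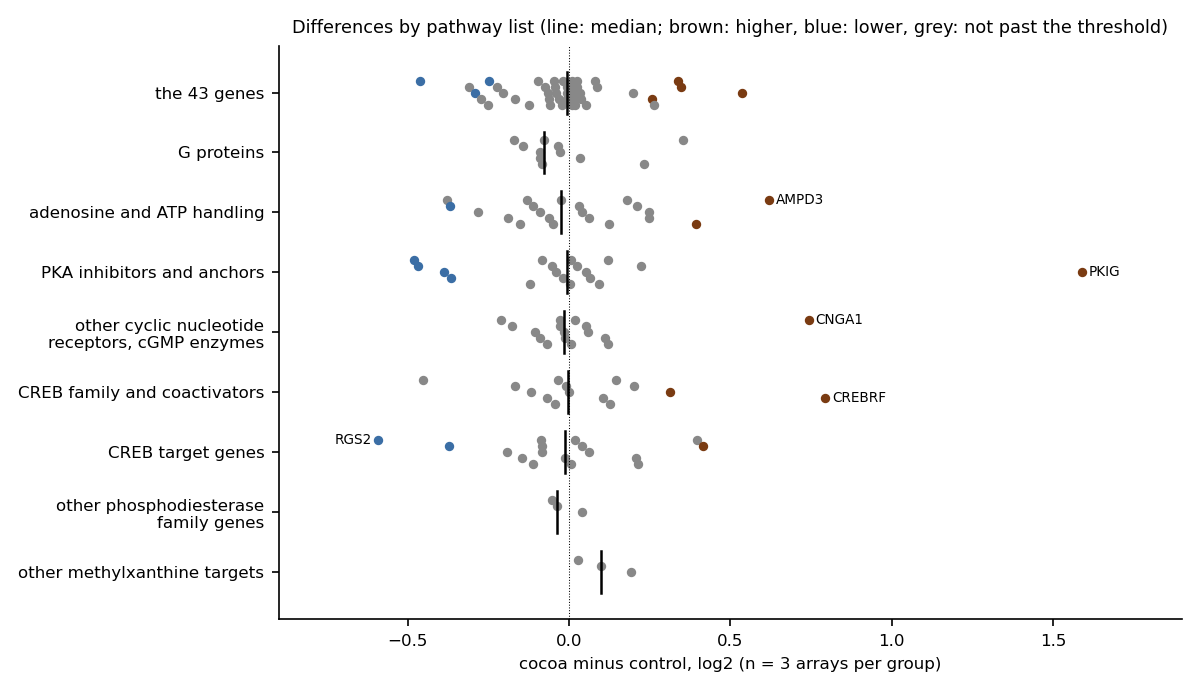
Log2 difference, cocoa minus control (x axis, n = 3 arrays per group), of the 43 genes and of the measured members of 8 pathway lists (rows), with each list's median as a black line. Medians lie near 0 in every row, and PKIG at 1.59 stands apart from all other genes shown.

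The arrays varied about as much in these genes as in others. The median SD among cocoa arrays was 0.0904 and among controls 0.0712, against 0.0956 and 0.0753 over all genes. Cocoa array 2 was farthest from the cocoa mean in 17 of the 43 genes (39.5%, against 33.7% of all genes), and control array 3 was farthest from the control mean in 16 (37.2%, against 36.2%).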

How the data were processed

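Total RNA of 6 cultures was labelled with biotin and hybridised to Affymetrix U133 Plus 2.0 arrays. The deposited log2 values come from RMA, per the submitters' processing notes. GeneSpring GX is named in the series text, and its version is not given in the sources used. The authors' table was centred, since every probe set's median is 0, and the log2 base follows from RMA. Symbols came from the platform annotation, and a gene was the mean of its probe sets with 1 symbol (41091 probe sets; 43 of 43 members matched RefSeq by gene identifier). Cocoa minus control was tested in limma 3.58.1 (R 4.3.3; lmFit, eBayes) over all 19775 genes, and separately over 54613 probe sets, adjusted by Benjamini-Hochberg (threshold 0.05). The steps were tested on simulated data. No arrays were copies of each other (SD of differences 0.175 to 0.264 within groups, 0.269 to 0.333 across). The members, lists and tests were chosen with earlier results of these data known. All members are accounted for; full values went to called members, the next largest differences and the receptors, and called list genes were named, up to 4 by size in a list; AKAP8, PKIA and the per-array values of NT5E and PRKAR1A were added after their values were seen. Alternatives included a replicate block, a robust prior, array weights, quantile normalisation, median centring, 2 technical covariates, other probe set rules and leaving out each array. No filter on low values was possible. Tables and figures used Python 3.11.15, pandas 2.3.3 and matplotlib 3.10.9.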

Additional observations from a re-analysis of the deposited data

Results flagged for a closer look

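The control probe sets of 18S ribosomal RNA, which no comparison above uses as an outcome, read 3.31 in cocoa array 2 and 1.40 in cocoa array 3, above the highest control array (0.51). With this signal as a covariate 2 of the 7 called genes, ADA and PDE6D, stayed past the threshold; beyond that its part in the differences was not tested. Of 5 probe sets that carry a symbol of the rule together with another symbol, 1 changed, at 0.13, 0.17 and 0.17 in cocoa arrays against −0.13, −0.29 and −0.19 in controls, with a log2 difference of 0.36 (limma adjusted p over probe sets 0.0254), and it is assigned to no gene here. Groups of 3 arrays are too small for a test of single outlying arrays.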

How the results depend on the processing

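Of the 7 called genes, 2 (ADA and PDE6D) stayed past the threshold in every alternative and 3 (these and ADORA2B) in every fit without 1 array; none changed sign in any alternative. The count of 7 called genes became 11 with array weights, 2 with the 18S covariate, 2 with the 5′ minus 3′ covariate and 3 to 7 without 1 array (3 without cocoa array 2, control array 1 or control array 2). The 12 called probe sets became 2 with either covariate and 2 to 12 without 1 array (7 without cocoa array 2; 6 without cocoa array 3, control array 1 or control array 3; 2 without control array 2). The 14 called list genes became 9 with the 18S covariate and 11 to 20 without 1 array. Over all genes, 2666 calls became 1103 with the 18S covariate, 1411 with the 5′ minus 3′ covariate and 1315 to 2881 without 1 array (1623 without control array 1 and 1315 without control array 2). With the replicate number as a block, 4 of the 43 genes and 5 of their probe sets were called. Deviations of same-numbered arrays from their group means had correlations of −0.12, −0.00892 and −0.00311. Cocoa array 2 had correlations of 0.121 with control array 1 and −0.114 with control array 3. Such correlations over all genes cannot tell whether same-numbered arrays shared a day or batch, and the labels do not say. Without probe sets of the suffixes _s_at and _x_at, ADCY9 turned from −0.0055 to 0.42 (adjusted p = 0.0192), since 1 of its 3 probe sets is left. Of genes not called, 6 passed in some alternative. Sign changes of genes past no threshold in either fit numbered 61. A filter on dim probe sets, another background correction and a scan block were not run, as neither levels nor scan data were at hand.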

Other observations

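ADA, with the largest increase of the 43 genes, and PKIG, with the largest in the pathway lists, are next to each other on chromosome 20 in the RefSeq gene order, on opposite strands (− for ADA and + for PKIG). This was noticed after their values were seen. SERINC3, the gene on the other side of PKIG, also rose (log2 difference 0.36, SE 0.0749, limma adjusted p = 0.0127), and the next one, TTPAL, had a difference of 0.065 (adjusted p = 0.634). On the other side of ADA, LINC01260 read −0.049 (adjusted p = 0.788) and the nearest measured protein-coding genes, CCN5 and KCNK15, read −0.054 (0.806) and 0.24 (0.133). Whether the neighbourhood bears on these differences was not tested.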
